A study of Rattus norvegicus with 30 samples.

Results

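The Krüppel-like factor (KLF) genes Klf4, Klf5 and Klf10 were followed through the first 72 h of osteogenesis, adipogenesis and chondrogenesis in rat bone marrow mesenchymal stem cells (BMSCs). They were taken by gene name, with values of the same name summed, and are 3 of the 9999 gene names in the deposited files and 3 of the 4363 genes that passed the filter on low values. The study induced BMSCs of the Sprague Dawley strain, isolated from 3 female rats aged 3 weeks, into the 3 lineages with commercial differentiation media, in order to follow transcription factors through the early phases of lineage commitment. Osteogenic (OS), adipogenic (AD) and chondrogenic (CH) cultures were sampled at 3, 12 and 72 h, with 3 samples per group, and together with 3 samples of undifferentiated cells (CON, 0 h) they made 30. All 9 induced groups were compared with the same 3 samples at 0 h, and no culture kept in growth medium to 3, 12 or 72 h was among the samples, so induction and time in culture cannot be told apart. Per the study's methods, cultures were pooled before RNA isolation, and nothing ties a sample to a rat, so p-values measure the spread between these samples, which may be technical. RNA came from whole cultures, in which fewer cells of a type and less RNA per cell cannot be told apart.

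KLF proteins are transcription factors that bind CACCC and GC-rich boxes in DNA through zinc fingers at their carboxyl end, and they act as activators or repressors depending on the partner proteins they recruit. Klf4 is known as a reprogramming factor of pluripotent cells and as a brake on the cell cycle in many epithelia. Klf5 is known to promote proliferation and to act early in the transcription cascade of fat cells. Klf10, also called TGF-beta-inducible early gene, was first described as a gene that TGF-beta induces in bone-forming cells, and encodes a repressor that takes part in TGF-beta signalling.

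The promoter of Klf5 is shown because KLF proteins are known to bind CACCC boxes and because Klf5 is the member that fell in both adipogenesis and chondrogenesis. The window of 300 bases spans the RefSeq start of Klf5 and lies mostly upstream of it, at chr15:82471831-82472130 on the plus strand of assembly GRCr8. Capitals mark matches to CACCC (on the other strand, as GGGTG) and to CCAAT (also as ATTGG).
Klf5 promoter: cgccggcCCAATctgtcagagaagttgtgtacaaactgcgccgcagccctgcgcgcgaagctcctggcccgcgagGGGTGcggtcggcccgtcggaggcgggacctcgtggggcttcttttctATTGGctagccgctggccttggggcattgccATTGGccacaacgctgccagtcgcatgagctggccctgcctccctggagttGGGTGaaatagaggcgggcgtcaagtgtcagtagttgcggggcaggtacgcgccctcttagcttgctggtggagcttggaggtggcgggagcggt

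This window held 2 CACCC and 3 CCAAT matches, with both strands searched and no match overlapping another, and none to GGGCGG or TATAAA. Of 33469 RefSeq promoter windows of the same length, 54.9% held CACCC, 37.5% CCAAT, 33.1% GGGCGG and 14.2% TATAAA. Its GC content was 65.3%, against a median of 51.7% over all windows. The window listed for Klf4 lay inside the outer bounds of the gene, starting 340 bases from its 5′ end, and had a GC content of 45% with 2 TATAAA matches, none overlapping, and none to the other 3 motifs. The window of Klf10 was not analysed here. A match describes letters only, and the files hold no binding data.

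Expression is given in CPM, read counts scaled to a common total, which carry no gene length, so levels are compared between samples and not between genes. The totals behind the values were 3899609 to 9046719 reads per sample (median 6579543), of which 38.9 to 71.4% fell on listed genes. Fold changes are log2 of (CPM + 1) with their standard error (SE) from 1 limma model of all 30 samples, and a change was called where this value was 1 or more in either direction and the adjusted p was under 0.05. At 0 h the BMSC markers Thy1 (7736 to 8280 CPM), Itgb1 (7259 to 8160 CPM) and Cd44 (579 to 628 CPM) were abundant, while Eng was at 0 to 0.143 CPM and Pdgfra at 0.139 to 1.82 CPM. The BMSC list summed to 16085 to 16892 CPM at 0 h, 4112 to 4779 CPM at AD 72 h and 9106 to 9584 CPM at CH 72 h. In osteogenesis it summed to 21323 to 23217 CPM at 3 h and 15633 to 17096 CPM at 72 h, which spanned the 0 h range. Thy1 was called lower at 72 h of every lineage, at 427 ± 37.5 CPM in adipogenesis, 2380 ± 177 CPM in chondrogenesis and 3707 ± 75.7 CPM in osteogenesis. Itgb1 and Cd44 reached 15548 and 2014 CPM in induced samples, above 0 h. Against 0 h the list had 3 calls higher and 4 lower in 36 tests, beside 16.8% of tests called over all genes. The part of these marker differences in the KLF values at 72 h was not tested. The haematopoietic markers, 3 of 10 of them listed, summed to at most 2.06 CPM in any sample. The chondrocyte list summed to 1173 to 1516 CPM at CH 72 h against 46.8 to 50.8 CPM at 0 h, nearly all of it Sox9, while the cartilage matrix genes Acan and Col2a1 never exceeded 0.151 and 0.769 CPM in any sample. The osteoblast list summed to 3.47 to 5.77 CPM at OS 72 h against 2.93 to 3.18 CPM at 0 h, and to 202 to 320.3 CPM at CH 72 h, where Ibsp reached 318 CPM. The adipocyte list summed to 1163 to 3221 CPM at AD 72 h and 1041 to 1146 CPM at OS 72 h, against 664 to 778 CPM at 0 h. The highest AD 72 h sum was that of replicate 3. Sp7 and Alpl, both on the osteoblast list, never exceeded 0.221 and 0.368 CPM in any sample. Of the osteoblast list 7 of 9 genes were in the files, and of the adipocyte list 6 of 8, so these sums are incomplete. The study reported a transient rise in alkaline phosphatase concentration in every lineage. Its staining after longer induction showed mineralized matrix, lipid vesicles and cartilage formation. RNA values up to 72 h cannot test either result. The markers here do not settle the cell type reached, so OS, AD and CH are used below as names of the medium.

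Some libraries stood apart from the other replicates of their group. Counting tested genes that lay more than 2 log2 units from the mean of the other replicates, AD 72 h replicate 3 had 74, AD 12 h replicate 1 had 24 and OS 3 h replicate 3 had 18, and the next highest sample had 13. Of the 36 comparisons of Klf4, Klf5 and Klf10 that include such a group, 32 kept their side of the threshold without the 3 libraries, and the 4 that did not are given beside their values. Between all 30 pairs of replicates the read counts differed by more than sampling noise (chi-square per degree of freedom 2.56 to 93.0), so no library was counted as a repeat of another.

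Klf4 was higher than at 0 h throughout osteogenesis and at 3 h of adipogenesis, and no chondrogenic change from 0 h was called. Klf5 was lower at 12 h of adipogenesis and of chondrogenesis, and no change was called in osteogenesis. Klf10 was higher at 72 h in all 3 lineages and at 12 h of osteogenesis and chondrogenesis. Of the 27 comparisons of the 3 genes with 0 h, 11 were called, 9 of them higher and 2 lower, and over all tested genes 16.8% of the comparisons with 0 h were called. The 3 genes were chosen with earlier results of these data known. These counts, and those between times and lineages below, are therefore descriptions.

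**Figure D1:**
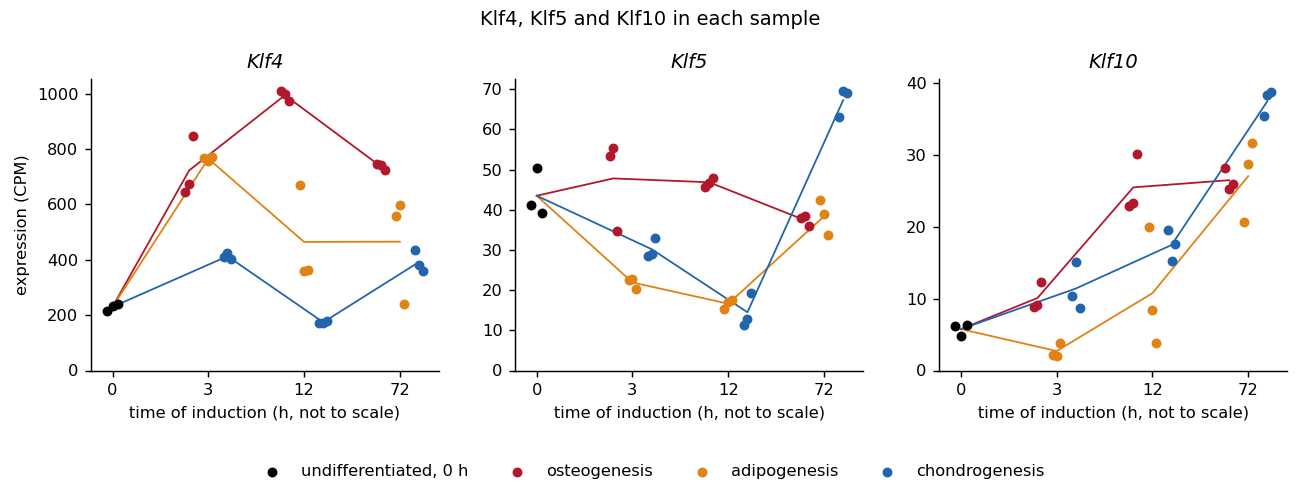
Expression of Klf4, Klf5 and Klf10 in CPM (y axis, linear, from 0, 1 scale per gene) at 0, 3, 12 and 72 h (x axis, not to scale), with 1 point per sample and lines through the group means of 3 samples. Klf4 was highest in the 3 OS 12 h samples, at 972 to 1011 CPM, and the CH 72 h samples held the highest Klf5, at 63.1 to 69.6 CPM, and the highest Klf10, at 35.4 to 38.7 CPM.

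In undifferentiated cells Klf4 was at 217, 232 and 241 CPM. In osteogenesis it was at 647, 676 and 847 CPM at 3 h. At 12 h of osteogenesis it reached 1011, 1000.4 and 972 CPM, and at 72 h it was at 747, 741 and 723 CPM. Every osteogenic sample lay above every sample at 0 h, and the 12 h samples above all others of the series. The mean at 12 h was 995 ± 19.99 CPM (SD, n = 3), against 230.0 ± 12.3 CPM at 0 h, a ratio of 4.32. The log2 fold changes of Klf4 were 1.64 ± 0.21 (SE) at 3 h (limma adjusted p = 1.57e-07), 2.11 at 12 h (limma adjusted p = 1.01e-09) and 1.68 at 72 h (limma adjusted p = 2.06e-07). The calls held in each fit that left out a library, and the OS 3 h value was 1.52 without replicate 3, the library that stood apart. Over all tested genes, 18.4% were called at OS 3 h, 21.8% at OS 12 h and 12.5% at OS 72 h.

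In adipogenesis Klf4 was at 768, 757 and 771 CPM at 3 h, the closest agreement between replicates of Klf4 in an induced group relative to its level. At 12 h of adipogenesis it was at 669.9, 360.4 and 363 CPM, and at 72 h at 557, 598 and 242 CPM. All adipogenic samples lay above the 0 h range, the third AD 72 h sample by less than 1 CPM. The log2 fold change of Klf4 was 1.73 ± 0.21 at 3 h (limma adjusted p = 6.43e-08). At 12 h it was 0.95 (limma adjusted p = 0.000603) and at 72 h 0.91 (limma adjusted p = 0.000936), both short of the fold required. Without AD 72 h replicate 3, a library that stood apart, the 72 h value was 1.32 and called. Without AD 12 h replicate 1, which also stood apart, the 12 h value was 0.65 and not called, while it was 1.10 without replicate 2 and 1.09 without replicate 3, both called. Over all tested genes 18.8% were called at AD 3 h, 13.7% at AD 12 h and 15.3% at AD 72 h.

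In chondrogenesis Klf4 was at 410.4, 424 and 404 CPM at 3 h, at 171, 173 and 179 CPM at 12 h, and at 435, 381 and 359.8 CPM at 72 h. The 3 h and 72 h samples lay above the 0 h range and the 12 h samples below it, with no overlap in either direction. Its log2 fold changes against 0 h were 0.84 at 3 h (limma adjusted p = 0.00159), -0.40 at 12 h (limma adjusted p = 0.155) and 0.76 at 72 h (limma adjusted p = 0.00442), none of them called. Between successive times, however, Klf4 fell by 1.24 on the log2 scale from 3 to 12 h (limma adjusted p = 4.44e-05) and rose by 1.16 from 12 to 72 h (limma adjusted p = 5.24e-05). Both calls held in each of the fits that left out a library.

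Klf5 was at 41.1, 50.3 and 39.1 CPM at 0 h. In adipogenesis it was at 22.5, 22.8 and 20.4 CPM at 3 h, at 15.4, 16.9 and 17.6 CPM at 12 h, and at 42.4, 39.0 and 33.7 CPM at 72 h. The samples at 3 and 12 h lay below every 0 h sample, and those at 72 h overlapped them. Without AD 72 h replicate 3 the 72 h difference was -0.087, against -0.17 with it. The log2 fold change of Klf5 was -0.95 ± 0.16 at AD 3 h (limma adjusted p = 1.95e-05), short of the fold required, and -1.33 at AD 12 h (limma adjusted p = 1.34e-07), where Klf5 was 2.62-fold lower and stayed called without AD 12 h replicate 1, at -1.28. The AD 3 h value was -1.02 and called without CON replicate 3. From 12 to 72 h Klf5 rose by 1.16 (limma adjusted p = 9.97e-07).

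In chondrogenesis Klf5 was at 28.5, 29.1 and 33.1 CPM at 3 h and at 11.4, 12.8 and 19.3 CPM at 12 h, all below the 0 h samples. At 72 h it was at 63.1, 69.6 and 69.2 CPM, all above them. The log2 fold changes against 0 h were -0.51 at 3 h (limma adjusted p = 0.013), -1.55 at 12 h (limma adjusted p = 7.27e-09), where Klf5 was 3.00-fold lower, and 0.62 at 72 h (limma adjusted p = 0.00299), of which only the 12 h value was called. From 12 to 72 h of chondrogenesis Klf5 rose 4.64-fold, by 2.17 on the log2 scale (limma adjusted p = 8.49e-12), and the lowest and the highest group mean of Klf5 in the series were these 2 groups, at 14.5 ± 4.23 and 67.3 ± 3.65 CPM. From 3 to 12 h it fell by 1.04 (limma adjusted p = 1.55e-05). This value was at -0.97 and not called without CH 3 h replicate 3, at -0.90 without CH 12 h replicate 1 and at -0.97 without CH 12 h replicate 2, and it was also not called with median-ratio scaling (-0.94), quantile normalization (-0.80) or edgeR (-0.96).

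In osteogenesis Klf5 was at 53.4, 55.3 and 34.7 CPM at 3 h, at 45.8, 46.8 and 48.0 CPM at 12 h, and at 37.9, 38.5 and 35.9 CPM at 72 h. The samples at 3 and 12 h overlapped the 0 h range, and those at 72 h lay just below it. The log2 fold changes were 0.11 at 3 h (limma adjusted p = 0.64), 0.11 at 12 h (limma adjusted p = 0.633) and -0.20 at 72 h (limma adjusted p = 0.416). Without OS 3 h replicate 3 the 3 h value was 0.32 and not called. The sign at 3 and 12 h turned under 3 other scalings and in edgeR, as it also did at 3 h without OS 3 h replicate 2.

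**Figure D2:**
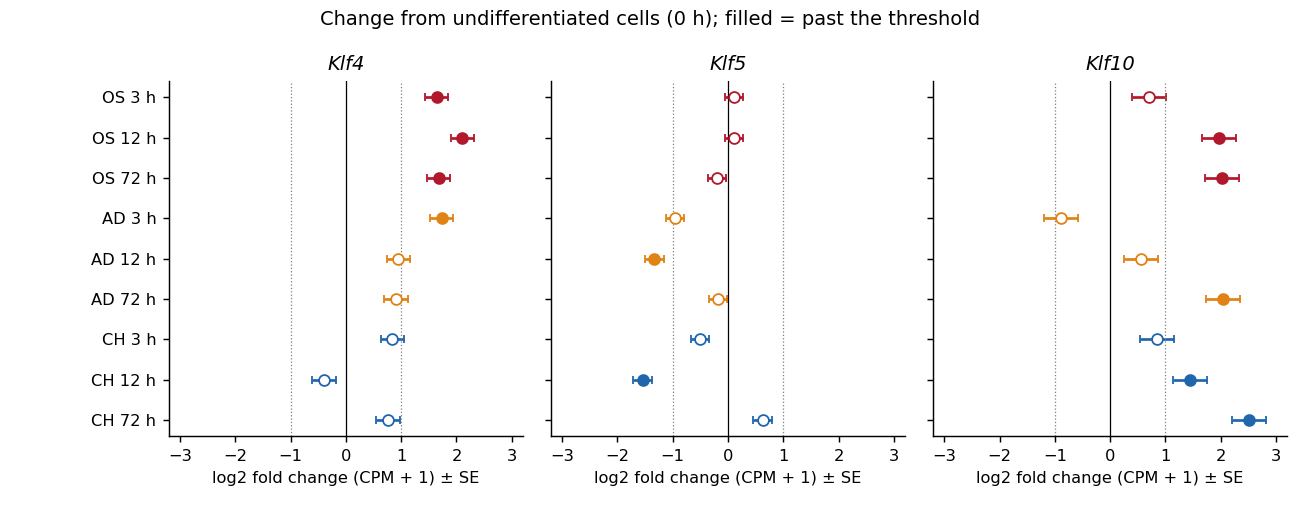
Log2 fold change of CPM + 1 against 0 h (x axis) for each lineage and time (y axis), with 1 panel per gene and bars of 1 SE from the limma model of 30 samples. Filled points passed the threshold, and dotted lines mark a log2 fold change of 1 in either direction. Klf4 is called in all 3 osteogenic groups and at AD 3 h, Klf5 at AD 12 h and CH 12 h, and Klf10 in the 72 h groups of the 3 lineages and at OS 12 h and CH 12 h.

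Klf10 was at 6.16, 4.74 and 6.37 CPM at 0 h, which stood for 34 to 43 reads per sample, fewer than for either other gene. In osteogenesis it was at 8.77, 9.16 and 12.3 CPM at 3 h, at 22.9, 23.3 and 30.2 CPM at 12 h, and at 28.2, 25.3 and 25.9 CPM at 72 h. All 9 osteogenic samples lay above the 0 h range, and the 12 h and 72 h samples overlapped each other. The log2 fold changes of Klf10 against 0 h were 0.71 ± 0.31 at 3 h (limma adjusted p = 0.065), 1.97 at 12 h (limma adjusted p = 3.23e-06) and 2.03 at 72 h (limma adjusted p = 4.28e-06). The rise from 3 to 12 h was called, at 1.26 (limma adjusted p = 0.00263), and the difference from 12 to 72 h was 0.06 (limma adjusted p = 0.892).

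In chondrogenesis Klf10 was at 10.3, 15.1 and 8.73 CPM at 3 h, at 19.5, 15.3 and 17.6 CPM at 12 h, and at 35.4, 38.2 and 38.7 CPM at 72 h. Each time lay above the one before without overlap, and all above 0 h. The log2 fold changes were 0.85 at 3 h (limma adjusted p = 0.025), 1.45 at 12 h (limma adjusted p = 0.000301) and 2.52 at 72 h (limma adjusted p = 6.39e-08), and the last was the largest change of the 3 genes from 0 h, at a ratio of 6.51 in CPM. The 3 h value was 1.01 and called without CH 3 h replicate 3. The rise from 12 to 72 h was 1.06 (limma adjusted p = 0.0066) and lost its call without CH 12 h replicate 2, at 0.98. The share of all tested genes that was called against 0 h was 18% at CH 3 h, 14.4% at CH 12 h and 18% at CH 72 h. At CH 3 h, none of the 3 genes was called by limma or by edgeR, and all 3 had an unadjusted p under 0.05.

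In adipogenesis Klf10 was at 2.21, 2.05 and 3.87 CPM at 3 h, or 13 to 26 reads per sample. At 12 h it was at 19.9, 8.47 and 3.89 CPM, and at 72 h at 20.7, 28.7 and 31.7 CPM. The 3 h samples were the only group below the 0 h range, the 12 h samples spanned it, and the 72 h samples lay above it. The log2 fold changes were -0.89 at 3 h (limma adjusted p = 0.0187), 0.56 at 12 h (limma adjusted p = 0.167) and 2.04 at 72 h (limma adjusted p = 3.03e-06), of which only the last was called. Without the 3 libraries that stood apart, the 12 h value was 0.019 and the 72 h value 1.92, the last still called. Without AD 12 h replicate 3, in contrast, the 12 h value was 1.07 and called. The 3 h value was called without CON replicate 2, at -1.003, and without AD 3 h replicate 3, at -1.10. The rises from 3 to 12 h, by 1.45 (limma adjusted p = 0.000425), and from 12 to 72 h, by 1.48 (limma adjusted p = 0.000202), were both called, but each depended on a library of AD 12 h: without replicate 1 the first was 0.91, and without replicate 3 the second was 0.97. Both also lost their call in a fit of the 6 samples alone.

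At AD 12 h the samples differed in more than the KLF genes. Replicate 1, with the highest Klf4 and Klf10 of the group, had summed adipocyte markers of 254 CPM, against 1094 and 1028 CPM in replicates 2 and 3, and nearly all of each sum was Lpl, the lipase of the vessel wall that frees fatty acids from lipoproteins. At AD 72 h, replicate 3, with the lowest Klf4 and the highest Klf10 of its group, had 3221 CPM of these markers, against 1163 and 1389 CPM. Within these 2 groups Klf5 varied less, from 15.4 to 17.6 CPM at 12 h and from 33.7 to 42.4 CPM at 72 h. The part of these marker differences in the Klf4 and Klf10 values was not tested.

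Between successive times, 9 of 18 comparisons of the 3 genes were called, against 13.5% of such comparisons over all genes. In osteogenesis the only call was the rise of Klf10 from 3 to 12 h, when 7.82% of all tested genes were called. From 12 to 72 h of osteogenesis 23.2% of all genes were called and none of these 3, by limma or by edgeR, with 1 of them, Klf4, at an unadjusted p under 0.05 (from 995 to 737 CPM, log2 fold change -0.43, limma adjusted p = 0.0952). In adipogenesis, 1 of the 3 was called from 3 to 12 h (12.9% of all genes), namely Klf10, and from 12 to 72 h Klf5 and Klf10 rose (16% of all genes). Klf4 differed by -0.78 from 3 to 12 h of adipogenesis (limma adjusted p = 0.00465), which was -1.08 and called without AD 12 h replicate 1, and by -0.04 from 12 to 72 h (limma adjusted p = 0.912), a value that turned to 0.67 without the 3 libraries that stood apart. Without them the rises of Klf5 and Klf10 from 12 to 72 h of adipogenesis were 1.19 and 1.90, and that of Klf10 from 3 to 12 h of osteogenesis 1.40, all called. In chondrogenesis Klf4 and Klf5 fell together from 3 to 12 h, when 7.68% of all genes were called, and all 3 genes rose from 12 to 72 h, when 13.2% were called. The osteogenic Klf5 difference from 3 to 12 h was 0.00 (limma adjusted p = 1).

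Because all lineages start from the same 0 h samples, the lineages were compared directly at each time, and this is also the test of whether their changes from 0 h differ. Of 27 such comparisons 9 were called, against 14% over all genes, and 3 of them were at 3 h, 6 at 12 h and none at 72 h. At 3 h Klf5 and Klf10 separated osteogenesis from adipogenesis. At 12 h all 3 genes were higher in osteogenesis than in adipogenesis, and Klf4 and Klf5 higher than in chondrogenesis. Without the 3 libraries that stood apart all 9 were called, at 1.27 for Klf5 and 1.46 for Klf10 between osteogenesis and adipogenesis at 3 h, and at 1.46, 1.39 and 1.95 for Klf4, Klf5 and Klf10 between them at 12 h.

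At 3 h Klf4 did not differ between osteogenesis and adipogenesis beyond its spread, at 723 ± 108 and 765 ± 7.51 CPM (log2 difference -0.09, limma adjusted p = 0.837). Without the 3 libraries that stood apart, OS 3 h replicate 3 with 847 CPM among them, the difference was -0.21 and not called (limma adjusted p = 0.0247), and the other OS 3 h samples, at 647 and 676 CPM, lay below the AD 3 h samples. Klf4 in chondrogenesis was lower than in both, with every sample apart, but by less than the fold required, at 0.80 for osteogenesis minus chondrogenesis (limma adjusted p = 0.00692) and -0.89 for chondrogenesis minus adipogenesis (limma adjusted p = 0.00215). Klf5 was 2.18-fold higher in osteogenesis than in adipogenesis, with a log2 difference of 1.06 (limma adjusted p = 1.51e-05), a call that was lost without OS 3 h replicate 1 (0.97) or replicate 2 (0.95) and with equal sums over the listed genes (0.99). Klf10 was higher than in adipogenesis by 1.60 in osteogenesis (limma adjusted p = 0.000267) and by 1.74 in chondrogenesis (limma adjusted p = 6.42e-05), and the adipogenic samples held at most 3.87 CPM against at least 8.73 CPM in the others. Over all genes, 7.66% were called between osteogenesis and adipogenesis, 7.31% between osteogenesis and chondrogenesis and 9.35% between chondrogenesis and adipogenesis at 3 h. Between osteogenesis and chondrogenesis none of the 3 genes was called at 3 h by limma or edgeR, and 2 had an unadjusted p under 0.05.

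At 12 h Klf4 was ordered osteogenesis, adipogenesis, chondrogenesis, at 995 ± 19.99, 464 ± 178 and 174 ± 4.18 CPM, with no overlap between any pair of groups. Its log2 differences were 1.16 for osteogenesis minus adipogenesis (limma adjusted p = 6.06e-05), 2.51 for osteogenesis minus chondrogenesis (limma adjusted p = 4.71e-11) and -1.35 for chondrogenesis minus adipogenesis (limma adjusted p = 7.2e-06). The first lost its call with quantile normalization (0.89), with equal sums over the listed genes (0.88) and in edgeR (0.97). Klf5 was higher in osteogenesis, at 46.9 ± 1.10 CPM, than in adipogenesis, at 16.6 ± 1.14 CPM, and chondrogenesis, at 14.5 ± 4.23 CPM, by 1.44 (limma adjusted p = 3.57e-08) and 1.66 (limma adjusted p = 1.59e-09). The last 2 groups overlapped and differed by -0.22 (limma adjusted p = 0.354). Klf10 was higher in osteogenesis than in adipogenesis by 1.41 (limma adjusted p = 0.000522), which was 0.90 and not called without AD 12 h replicate 3, and lost its call when the 6 samples were fitted alone (limma adjusted p = 0.09985). The difference of Klf10 between chondrogenesis and adipogenesis was 0.89 (limma adjusted p = 0.0253), and ranged from 0.39 without AD 12 h replicate 3 to 1.43, when it was called, without AD 12 h replicate 1. At 12 h, 13.2% of all genes were called between osteogenesis and adipogenesis, 16% between osteogenesis and chondrogenesis, and 13.6% between chondrogenesis and adipogenesis.

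At 72 h none of the 9 comparisons between lineages was called for the 3 genes by limma on the deposited CPM or by edgeR, while 13.7% of all genes were called between osteogenesis and adipogenesis, 19.6% between osteogenesis and chondrogenesis and 25.5% between chondrogenesis and adipogenesis. In these comparisons, 1, 2 and 1 of the 3 genes had an unadjusted p under 0.05. The differences nearest to the fold required were those of Klf4, 0.91 higher in osteogenesis than in chondrogenesis (limma adjusted p = 0.000729), which was 1.06 and called with equal sums over the listed genes, and of Klf5, at -0.83 for osteogenesis minus chondrogenesis (limma adjusted p = 0.000131) and 0.80 for chondrogenesis minus adipogenesis (limma adjusted p = 0.000155). In each of these 3 comparisons the samples did not overlap. Klf4 in osteogenesis minus adipogenesis was 0.77 (limma adjusted p = 0.0041) which was 0.35 without AD 72 h replicate 3 and 1.004 and called without AD 72 h replicate 2. Klf10 at 72 h was at 26.5 ± 1.54 CPM in osteogenesis, 27.02 ± 5.71 CPM in adipogenesis and 37.4 ± 1.79 CPM in chondrogenesis, with differences between them of at most 0.49 in size, none called.

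**Figure D3:**
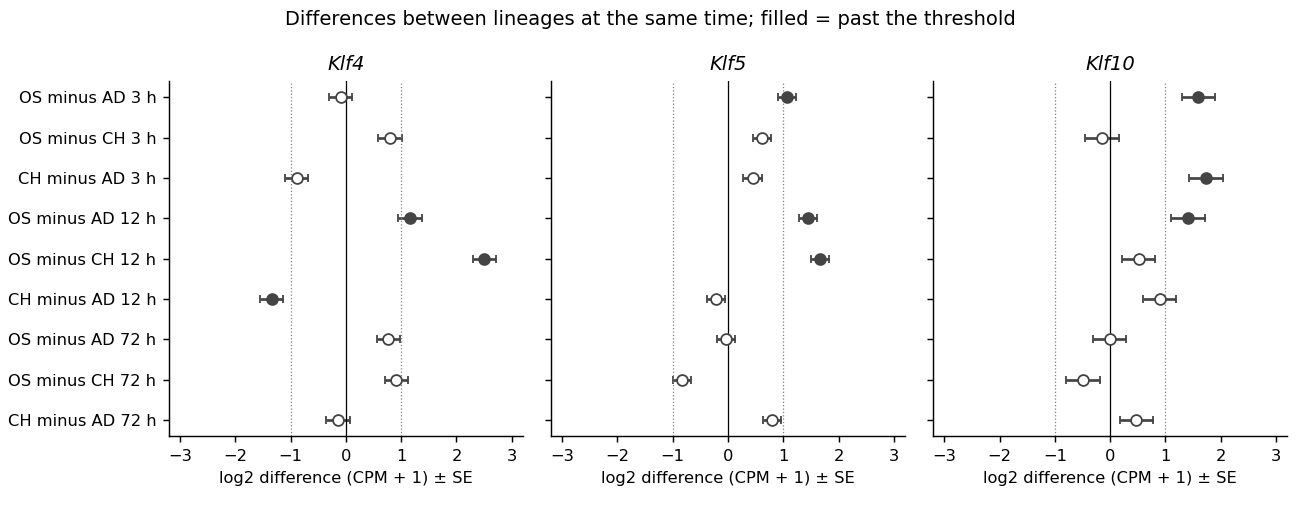
Log2 difference of CPM + 1 between lineages at the same time (x axis), for each pair of lineages and time (y axis), with 1 panel per gene, bars of 1 SE from the limma model and filled points past the threshold. Called differences are at 3 h for Klf5 and Klf10 and at 12 h for all 3 genes, and the 72 h points lie between -0.83 and 0.91.

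Ordered by group mean, Klf4 ran from CH 12 h, at 174 CPM, to OS 12 h, at 995 CPM, a ratio of 5.71. Neighbours in this order whose samples overlapped were OS 72 h and OS 3 h, AD 72 h and AD 12 h, AD 12 h and CH 3 h, and CH 3 h and CH 72 h. Klf5 spanned a ratio of 4.64, and its middle ranks, OS 3 h, OS 12 h, CON, AD 72 h and OS 72 h, each overlapped the next, as did AD 12 h and CH 12 h at the low end. Klf10 had the widest span, a ratio of 13.8 between CH 72 h, at 37.4 CPM, and AD 3 h, at 2.71 CPM. Its overlapping neighbours were AD 72 h and OS 72 h, OS 72 h and OS 12 h, CH 3 h and AD 12 h, and AD 12 h and OS 3 h. The orders of the 3 genes thus shared CH 12 h as the lowest group of Klf4 and Klf5, and CH 72 h as the highest group of Klf5 and Klf10.

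The other genes of the family were read beside these 3. Of 27 KLF and SP genes, 14 were listed in the files and 8 tested, and 6 of the 8, these 3 among them, were called at least once against 0 h, with 12 calls higher and 3 lower in 72 tests. Over all tested genes, 53.2% were called at least once against 0 h and 16.8% of tests were called, so counts of this kind in short lists are descriptions. Klf3, a repressor that recruits CtBP, was at 86.1 ± 10.7 CPM at 0 h and 34.6 ± 11.01 CPM at OS 3 h, a fall of 1.33 on the log2 scale (limma adjusted p = 2e-07). Klf16 rose from 24.4 ± 1.33 CPM to 91.5 ± 47.9 CPM at OS 3 h (log2 fold change 1.75, limma adjusted p = 3.31e-06) and 73.1 ± 4.56 CPM at OS 12 h (1.55, limma adjusted p = 1.81e-05). Klf6 was called at OS 72 h, at 4.68 ± 1.89 against 1.94 ± 1.83 CPM (1.07, limma adjusted p = 0.0313). This call lay close to both thresholds, with an SD at 0 h near the mean, and leaving out a library was not tried for it. Klf1 and Sp6 were not called and never exceeded 1.44 and 2.22 CPM. Without OS 3 h replicate 3, where Klf3 was at 22.4 CPM and Klf16 at 147 CPM, the OS 3 h values were -1.06 for Klf3 and 1.35 for Klf16, both called. Short of the fold required, Klf16 was at 0.94 at CH 3 h (limma adjusted p = 0.00517) and 0.99 at CH 12 h (limma adjusted p = 0.00394), and Klf3 at -0.87 at AD 3 h (limma adjusted p = 0.000138) and -0.78 at CH 3 h (limma adjusted p = 0.00049). In the other direction, also short of the fold, Klf3 was at 0.75 at OS 72 h (146 CPM, limma adjusted p = 0.00113) and 0.87 at AD 72 h (160.5 CPM, limma adjusted p = 0.000164). The median log2 fold change of the 8 tested genes was 0.77 at OS 72 h, against 0.08 over all genes, and -0.22 at CH 3 h, against 0.21 over all genes. Sp7, the osteoblast factor osterix, was listed but not tested, at no more than 0.221 CPM.

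**Figure D4:**
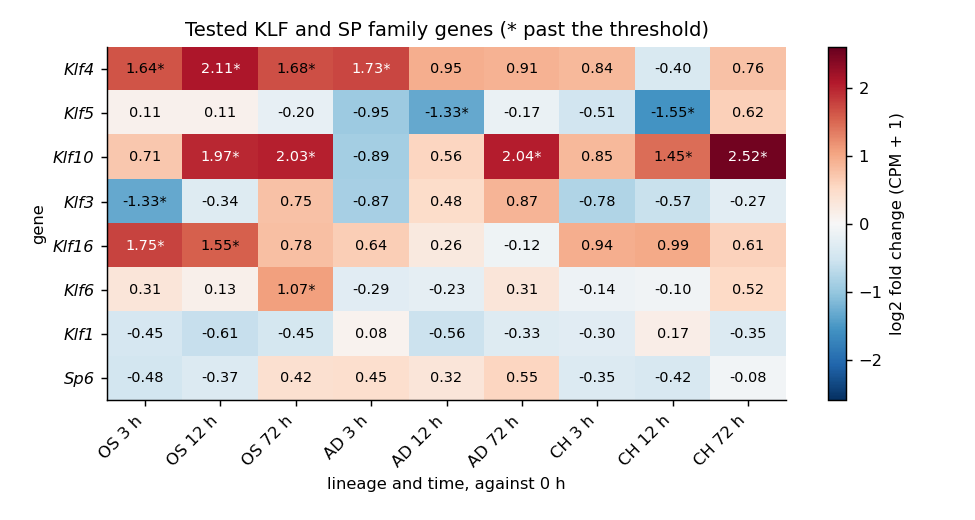
Log2 fold change of CPM + 1 against 0 h (colour scale and numbers) for the 8 tested KLF and SP genes (y axis) in the 9 induced groups (x axis), with an asterisk past the threshold. Of 15 asterisks, 11 belong to Klf4, Klf5 and Klf10, and the other 4 to Klf3, Klf16 and Klf6 in osteogenesis.

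Genes tied to KLF function in textbooks were counted from lists. In the TGF-beta list, chosen because TGF-beta induces Klf10, 8 of 22 genes were listed and 5 tested, and all 5 were called at least once against 0 h, with 14 calls higher and 10 lower in 45 tests, where 53.2% of all genes were called at least once and 16.8% of all tests were called. Its median log2 fold change was 1.06, 0.97 and 1.84 at 3, 12 and 72 h of chondrogenesis, against 0.21, 0.11 and 0.01 over all genes, and -1.003 at AD 72 h, against -0.05. Tgfbi, a matrix protein that TGF-beta induces, rose from 14.8 ± 1.32 CPM at 0 h to 1553 ± 65.4 CPM at CH 72 h (log2 fold change 6.62, limma adjusted p = 2.79e-17) and fell to 3.05 ± 2.27 CPM at AD 72 h (-2.16, limma adjusted p = 1.02e-06), while Klf10 was higher at both. Tgfbr3, the TGF-beta co-receptor betaglycan, went from 863 ± 18.7 CPM at 0 h to 74.0 ± 6.63 CPM at CH 72 h, 5426 ± 181 CPM at AD 72 h and 4247 ± 169 CPM at OS 72 h, all 3 called. Bambi, a decoy receptor, rose from 5.86 ± 0.900 to 35.0 ± 4.61 CPM at AD 3 h (2.39, limma adjusted p = 1.96e-07), where Klf10 had its lowest mean. That Klf10 difference from 0 h was -0.89 and not called in the main model. The part of TGF-beta signalling in the Klf10 values was not tested.

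In the smooth muscle list, whose contractile genes are known targets of Klf4 and Klf5, 6 of 7 genes were listed and 4 tested, and all 4 were called at least once, with 8 calls higher and 9 lower in 36 tests, beside the same 53.2% and 16.8% over all genes. The median log2 fold change of these 4 was 1.19 at OS 3 h, 0.70 at AD 3 h and 1.24 at CH 3 h, against 0.09, 0.15 and 0.21 over all genes, and -1.44 at AD 72 h, against -0.05. Cnn1, calponin, was at 87.9 ± 0.822 CPM at 0 h, rose to 387 ± 5.85, 309 ± 6.56 and 441 ± 2.21 CPM at OS 3 h, AD 3 h and CH 3 h, and fell to 1.41 ± 0.326 CPM at OS 72 h and 2.16 ± 0.894 CPM at AD 72 h, all called. Tagln, transgelin, was called higher at 3 h of all 3 lineages, at 63.0 ± 12.9, 43.5 ± 8.72 and 67.6 ± 7.98 CPM against 13.1 ± 1.65 CPM, and Cald1, caldesmon, was called lower at AD 3 h and OS 12 h. At AD 72 h, 3 of the 4 tested genes were called lower and none higher, beside 15.3% of all genes called. At CH 12 h, where Klf4 and Klf5 had their lowest means, Cnn1 was at 388 ± 28.1 CPM and Tagln at 70.4 ± 1.79 CPM, both called higher than at 0 h. Both were also called higher at OS 3 h, AD 3 h and CH 3 h. There the Klf4 means were 723, 765 and 413 CPM, against 230 CPM at 0 h. The part of Klf4 and Klf5 in the values of these genes was not tested.

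Of the adipogenic cascade, in which Klf5 is known to act, 8 of 13 genes were listed and 5 tested, and 3 were called at least once, with 3 calls higher and 5 lower in 45 tests, near the 53.2% and 16.8% over all genes. Their median log2 fold change was 0.34 at AD 72 h, against -0.05 over all genes, and -0.13 at AD 12 h, against 0.15. Lpl was at 720.3 ± 56.7 CPM at 0 h and fell to 13.9 ± 0.659 CPM at CH 72 h (log2 fold change -5.59, limma adjusted p = 5.89e-15), where Klf5 was at its highest. The part of Klf5 in the Lpl values was not tested. At AD 72 h Lpl was called higher (1.27, limma adjusted p = 0.0022), at 1160.4, 1387 and 3216 CPM, the last in replicate 3, which stood apart and without which the value was 0.82 and not called. Pparg, the master regulator of fat cells, was at most 0.139 CPM at 0 h and 2.18 ± 0.348 CPM at OS 72 h, with 0.376 ± 0.505 CPM and no call at AD 72 h, and the lipid droplet gene Plin1 was at most 0.303 CPM at 0 h and 2.35 ± 1.05 CPM at AD 72 h. Pparg at OS 72 h and Plin1 at AD 72 h were called, from group levels at or under 3 reads per sample.

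Immediate-early genes, the class whose rapid induction Klf4 and Klf10 can share, were represented by 5 of 20 listed names and 2 tested genes, with no call higher and 6 lower in 18 tests, beside 16.8% of tests called over all genes. Their median log2 fold change was -1.48 at AD 12 h and -1.22 at CH 12 h, against 0.15 and 0.11 over all genes. Jun, a subunit of AP-1, fell from 21.98 ± 3.2 CPM at 0 h to 7.04 ± 0.488 CPM at OS 3 h, 7.98 ± 7.91 CPM at AD 12 h and 3.71 ± 0.0605 CPM at CH 12 h. Jun was not called at AD 3 h, OS 72 h or AD 72 h, at means of 36.0, 32.7 and 30.2 CPM. The other 3 lower calls were of Ier3, from 2.12 ± 1.85 CPM at 0 h to at most 0.254 CPM in the means of OS 72 h, AD 12 h and CH 72 h. Of the ubiquitin ligases that act on KLF proteins, 2 of 5 were listed and 1 tested, Fbxw7, which marks Klf5 for breakdown and was higher at OS 3 h, at 8.51 ± 2.39 against 2.08 ± 0.207 CPM (log2 fold change 1.60, limma adjusted p = 0.000175). Of the corepressors, all 7 were listed and 4 tested. None of their 36 comparisons with 0 h was called by limma, where 12 had an unadjusted p under 0.05, and 1 was called by edgeR, with log2 fold changes from -0.58 to 0.91, while limma called 16.8% of such comparisons over all genes. Of the reprogramming partners of Klf4, 2 of 7 were listed, and of the cell cycle genes 3 of 8, and none of these passed the filter.

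The genes whose pattern was most like that of each KLF gene were found by Pearson's r of the group means of log2 (CPM + 1), over 10 groups and among 3339 genes whose group means spanned at least 1 log2 unit. At each of the 10 points all genes share the same samples and sequencing totals, so r is a description. For Klf4 the highest were LOC100365839 (r = 0.880), Fgl2 (0.852), Eif4e (0.835), Clec2dl1 (0.798) and Pithd1 (0.793), and the most opposite were Dnm3 (-0.872), AABR07031445.1 (-0.818) and Col5a2 (-0.815). For Klf5 they were Slc31a2 (0.842), Ptprj (0.810), Slc6a9 (0.741), Krt23 (0.724) and Ppp1r15a (0.693), with Slc25a3 (-0.869), Mcts1 (-0.842) and Tmtc3 (-0.806) most opposite. For Klf10 they were Cav2 (0.849), Cmbl (0.828), Stx3 (0.784), Pm20d1 (0.762) and Cd80 (0.750), with Slc5a1 (-0.898), Psma6 (-0.874) and Pik3r5 (-0.847) most opposite. Of these genes, Slc5a1, AABR07031445.1 and Krt23 had mean levels of 0.428, 0.707 and 0.743 CPM, near the level of 3 reads per sample (0.332 to 0.769 CPM). The next lowest were Eif4e, Dnm3, Cmbl and Tmtc3, at means of 1.17, 1.22, 1.32 and 1.94 CPM. No gene was on more than 1 of these lists, and r between the KLF genes was lower, at 0.329 for Klf4 and Klf5, 0.018 for Klf4 and Klf10 and 0.430 for Klf5 and Klf10.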

How the data were processed

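RNA-seq values of 30 samples in 10 groups of 3 were analysed, with groups taken from the sample labels. The files the authors deposited are named for FPKM, but hold CPM: divided by the smallest nonzero value of its sample, 100% of the entries came out whole (tolerance 0.1 reads), which gave the read counts and totals. The submitters' processing notes name Trimmomatic, HISAT2 and StringTie without versions, and the genome build and the counting step are not given in the sources used here. The study's methods describe mRNA libraries, while the sample labels describe removal of ribosomal RNA. Each file had 10803 values under 9999 gene names, of which 729 occurred more than once and were summed. Each KLF gene studied had 1 value per sample.

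The 4363 genes that reached 1 CPM in 3 or more samples entered the tests, run in R 4.3.3 with limma 3.58.1 (trend) on log2 (CPM + 1), a scale that understates the change of low genes, in 1 model of 10 groups, with Benjamini-Hochberg adjustment over all tested genes in each comparison. The comparisons were 9 with 0 h, 6 between successive times and 9 between lineages. A call required a change of 1 or more, up or down, on the log2 scale and an adjusted p under 0.05. Tried as alternatives were no filter, a pseudocount of 0.1, median-ratio scaling, quantile normalization, equal sums over the listed genes, fits of 6 samples, a replicate block, leaving out each library, and edgeR 4.0.16 (quasi-likelihood) on the recovered reads. After seeing the data, a fit without the 3 libraries that stood apart was added, and for Klf3 and Klf16 a fit without OS 3 h replicate 3 and for Lpl a fit without AD 72 h replicate 3. edgeR called 692 to 1195 genes per comparison with 0 h, and limma 545 to 952. The scripts were tested on simulated data. Levels of 3 reads or fewer were taken as the floor. The SE and the adjusted p cover the spread between these samples.

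The genes and the lists were chosen with earlier results of these data known. Of each list, the genes called in at least 1 comparison with 0 h were named, all of them for the KLF and SP family and up to 3 with the largest fold change for every other list. For pattern likeness the 5 highest and 3 lowest correlations were named. Promoter windows are from RefSeq, assembly GRCr8, where 2 of the 3 genes matched by symbol. Figures were drawn with matplotlib 3.10.9.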

Additional observations from a re-analysis of the deposited data

Results flagged for a closer look

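The lineages differed in their change from 0 h, by the test of the difference itself, in 9 values. At 3 h the log2 difference of osteogenesis minus adipogenesis was 1.06 for Klf5 and 1.60 for Klf10, and that of chondrogenesis minus adipogenesis was 1.74 for Klf10. At 12 h osteogenesis minus adipogenesis was 1.16 for Klf4, 1.44 for Klf5 and 1.41 for Klf10. Also at 12 h, osteogenesis minus chondrogenesis was 2.51 for Klf4 and 1.66 for Klf5, and chondrogenesis minus adipogenesis was -1.35 for Klf4. Of these, 3 lost their call in some fits: Klf5 at 3 h between osteogenesis and adipogenesis (0.95 and 0.97 with a library left out, 0.99 with equal sums over the listed genes), and at 12 h between the same lineages Klf4 (0.88 to 0.97 under 3 alternatives) and Klf10 (0.90 without AD 12 h replicate 3, and limma adjusted p = 0.09985 in a fit of the 6 samples). Samples of the compared lineages did not overlap in any of the 9.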

How the results depend on the processing

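The number of calls for Klf4, Klf5 and Klf10 was 11 to 14 against 0 h, 7 to 9 between successive times and 8 to 10 between lineages under all alternatives. Scaling moved the median of all genes against 0 h by -0.21 to 0.11 (median-ratio), -0.21 to 0.058 (quantile) and -0.18 to 0.16 (equal sums over the listed genes). edgeR, which differs in model and prior count as well as scaling, moved it by -0.28 to 0.079. Relative to the median of all genes, 28 of 29 calls kept a size of at least 1, and Klf5 from CH 3 h to CH 12 h was at -0.97. Under median-ratio scaling, quantile normalization, equal sums and edgeR, respectively, calls against 0 h that the main model did not make were Klf10 at AD 3 h (-1.09, -1.05, -1.05, -1.38, and -1.11 with pseudocount 0.1), Klf5 at AD 3 h (-1.19, -1.22, -1.14, -1.27) and Klf4 at AD 72 h (1.10, 1.20, 1.17, 1.10, and 1.32 without the 3 libraries that stood apart). The study itself lists these genes as differentially expressed at these times of adipogenesis. Between lineages, Klf4 in OS minus CH at 72 h was called with equal sums (1.06). In the same order, signs turned for Klf5 at OS 3 h (-0.12, -0.22, -0.15, -0.11), Klf5 at OS 12 h (-0.22, -0.34, -0.25, -0.30), Klf5 from OS 3 h to OS 12 h (-0.092, -0.12, -0.10, -0.19, and -0.21 without the 3 libraries) and Klf4 from AD 12 h to AD 72 h (0.40, 0.53, 0.31, 0.36, and 0.67 without the 3 libraries). Signs also turned for Klf5 at AD 72 h under the first 3 scalings (0.015, 0.023, 0.081), for Klf10 in OS minus CH at 3 h under quantile normalization (0.054), for Klf10 in CH minus AD at 72 h under equal sums (-0.0064) and for Klf10 in OS minus AD at 72 h without the 3 libraries (0.11). None of the results whose sign turned was called, and the cause was not tested.

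With 1 library left out, the range against 0 h was -1.10 to -0.76 for Klf10 and -1.02 to -0.84 for Klf5 at AD 3 h, 0.65 to 1.10 for Klf4 and 0.019 to 1.07 for Klf10 at AD 12 h, 0.67 to 1.32 for Klf4 at AD 72 h, 0.65 to 1.01 for Klf10 at CH 3 h and -0.0051 to 0.32 for Klf5 at OS 3 h. Between other groups it was -0.27 to 0.38 for Klf4 from AD 12 h to AD 72 h, -0.21 to 0.12 for Klf5 from OS 3 h to OS 12 h, -0.0049 to 0.19 for Klf10 from OS 12 h to OS 72 h, and -0.30 to 0.064 for Klf10 in OS minus CH at 3 h. At 72 h it was -0.12 to 0.043 for Klf5 and -0.18 to 0.11 for Klf10 in OS minus AD, and -0.56 to 0.090 for Klf4 in CH minus AD.

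The replicate numbers did not pair the samples: deviations of same-numbered samples correlated at -0.23 to 0.16, and the best match of a sample had its own number for 6 of 30 samples. With a replicate block the calls remained at 11, 9 and 9, and all 72 kept their side of the threshold. Keeping repeated gene names apart was not run, since each KLF gene studied has 1 value per sample. Klf10 had the fewest reads, 13 to 26 per sample at AD 3 h.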
